A study of Homo sapiens with 2 samples.

Results

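Nuclear-encoded subunits of the mitochondrial respiratory chain, together with assembly factors that share their name stems, were followed in Hep3B cells, an established human hepatocellular carcinoma line. Members were the rows of the deposited RNA-seq table whose symbol starts with NDUF, SDHA to SDHD, UQCR, COX and a digit, or ATP5, plus CYC1 and CYCS, without symbols that hold a hyphen. This gave 102 of the 11511 genes with values. The study compared 1 library of Hep3B cells given A4368, a compound known here only by its code, at 25 µM for 24 h with 1 library of Hep3B cells left untreated. Both libraries come from the same line grown in serum-containing DMEM, and the labels name no vehicle. Each condition is a single library, so the variation among cultures cannot be measured, nothing was tested, and each value compares these libraries and not the conditions.

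The respiratory chain carries electrons from NADH and succinate to oxygen in the inner mitochondrial membrane and uses the energy to pump protons, which return through ATP synthase and drive ATP formation. Complex I oxidises NADH, complex II oxidises succinate, complex III passes electrons from ubiquinol to cytochrome c, complex IV reduces oxygen, and complex V is the ATP synthase. Most subunits are encoded in the nucleus, and all complexes but complex II also hold subunits made inside mitochondria, which were not analysed here. In liver cells the chain serves a large demand from fatty acid oxidation, urea synthesis and gluconeogenesis.

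Levels are in FPKM, which corrects fragment numbers for transcript length and library size and so lets different genes be set side by side. The library ratio of a gene is log2((A4368 FPKM + 1)/(control FPKM + 1)), which understates the change of low genes, and a stated fold is the simple quotient of the FPKM values. Median levels over all genes with values were 13.5 FPKM with A4368 and 13.3 FPKM in the control. All 10 hepatocyte and hepatoma markers looked up had values, at 55.4 to 8930.3 FPKM with A4368 and 62.5 to 9183 FPKM in the control. None of 4 endothelial and none of 5 fibroblast and stellate cell markers was listed with a value, and of 4 leukocyte markers CD14 was, at 2.46 FPKM with A4368 and 2.50 FPKM in the control.

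The promoters of 5 members are shown because their ratios are described below as high (NDUFS7, SDHAF4 and UQCRC1) or low (NDUFB4 and NDUFV2) within their complex. Each runs from 150 bases before to 30 bases after the RefSeq start on GRCh38.p14, on the strand of the gene, and capitals mark matches to motifs of NRF1, the ETS family or YY1, factors known to act at promoters of respiratory chain genes.
NDUFS7 (chr19:1383757-1383936, plus strand): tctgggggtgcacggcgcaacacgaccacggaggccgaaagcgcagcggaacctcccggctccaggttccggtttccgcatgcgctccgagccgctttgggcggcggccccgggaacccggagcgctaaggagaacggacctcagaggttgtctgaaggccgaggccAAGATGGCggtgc
SDHAF4 (chr6:70566780-70566959, plus strand): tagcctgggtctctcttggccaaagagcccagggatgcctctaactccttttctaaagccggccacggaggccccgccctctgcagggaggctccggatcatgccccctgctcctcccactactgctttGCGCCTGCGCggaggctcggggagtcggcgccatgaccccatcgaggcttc
UQCRC1 (chr3:48609617-48609796, minus strand): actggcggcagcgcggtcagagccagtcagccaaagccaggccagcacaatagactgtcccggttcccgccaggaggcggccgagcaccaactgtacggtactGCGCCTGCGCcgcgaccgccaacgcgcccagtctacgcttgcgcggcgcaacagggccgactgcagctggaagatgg
NDUFB4 (chr3:120596186-120596365, plus strand): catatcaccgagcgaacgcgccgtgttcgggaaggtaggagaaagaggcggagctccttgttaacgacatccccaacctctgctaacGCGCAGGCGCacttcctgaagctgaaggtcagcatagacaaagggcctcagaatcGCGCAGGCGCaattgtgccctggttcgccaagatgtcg
NDUFV2 (chr18:9102549-9102728, plus strand): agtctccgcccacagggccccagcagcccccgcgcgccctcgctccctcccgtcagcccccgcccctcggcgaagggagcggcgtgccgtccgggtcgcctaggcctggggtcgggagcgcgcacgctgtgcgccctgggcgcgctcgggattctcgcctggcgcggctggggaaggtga
The capitals in NDUFS7 are a YY1 match, first base 18 after the start, and those in SDHAF4, UQCRC1 and NDUFB4 are NRF1 matches, while the NDUFV2 window holds none of the 3 motifs. UQCRC1 also has a YY1 match in the wider window counted below, which does not lie fully within the bases shown.

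Respiratory chain transcripts were close to each other in the libraries. In bulk RNA, fewer cells of a type and less RNA per cell cannot be told apart. Of 102 members, 101 averaged 1 FPKM or more and entered the counts. "All genes tested" below are the genes that passed the same level limit, since no statistical test was made. The member left out was NDUFA4L2. As deposited, 50 members were higher with A4368 and 51 were lower, where 52.0% of the 11238 genes tested were higher and 48.0% lower. After a rescaling that gave both libraries equal sums over all but the 50 highest genes, 68 members were higher and 33 lower, where 60.9% of all genes were higher and 39.1% lower. The split of the members therefore followed the scaling, as that of all genes did. The median log2 ratio of the members was -0.0048 as deposited and 0.044 after the rescaling, and that of all genes tested was 0.0098 and 0.055.

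Large ratios were few. A limit of 1.2-fold on the log2 scale was passed by 3 members that were higher and 4 that were lower, where 11.2% of all genes tested were higher and 11.1% lower by that much. The limit of 1.5-fold was passed upward by NDUFS7 and downward by 0 members, where 1.08% of all genes were higher and 2.12% lower. The middle 50% of the members lay between -0.081 and 0.074 log2 units, and the middle 50% of all genes tested between -0.13 and 0.14. The SD over genes was 0.15 log2 units in the members, 0.26 in all genes tested and 0.16 in the 921 genes that averaged 100 FPKM or more, a level that 59 members reached.

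**Figure D1:**
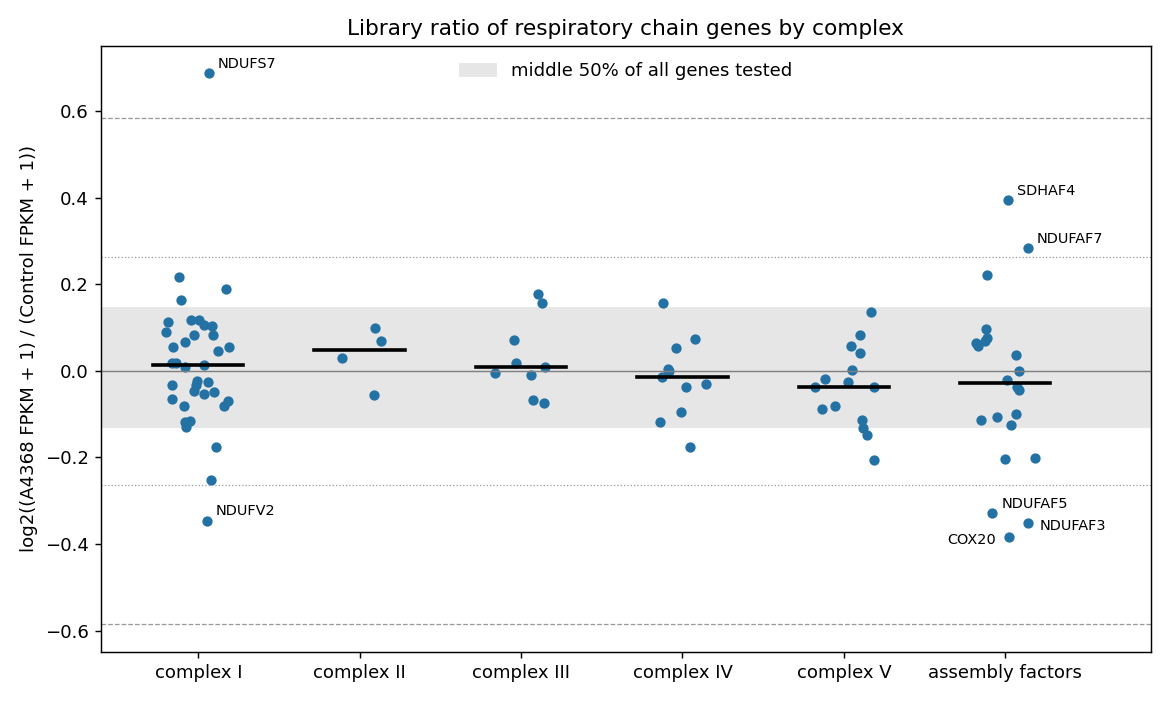
Library ratio, log2((A4368 FPKM + 1)/(control FPKM + 1)), of each counted subunit by complex and of the assembly factors. Points are genes, thick bars medians, the grey band the middle 50% of all genes tested, dotted and dashed lines the 1.2-fold and 1.5-fold limits. NDUFS7 lies above the 1.5-fold line at 0.69 and no gene lies below the lower one.

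Complex I had 37 measured subunits, of which 20 were higher and 17 lower with A4368. After the rescaling 26 were higher. The median log2 ratio as deposited was 0.014. Its NADH-oxidising end is formed by NDUFV1, which binds FMN and NADH, with NDUFV2 and NDUFS1, which carry iron-sulfur clusters. NDUFV1 was at 129 FPKM with A4368 and 111 FPKM in the control. NDUFV2 was at 107 FPKM with A4368 and 136 FPKM in the control, the lowest ratio of any subunit, at -0.35. NDUFS1 was at 52.6 FPKM with A4368 and 53.8 FPKM in the control. These partners in the same catalytic unit thus differed in opposite directions, NDUFV1 being 1.16-fold higher and NDUFV2 1.27-fold lower.

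The core of the ubiquinone-binding part of complex I includes NDUFS3, NDUFS7 and NDUFS8. NDUFS7 carries the last iron-sulfur cluster before ubiquinone. It stood at 158 FPKM with A4368 and 97.5 FPKM in the control, 1.62-fold higher, with a log2 ratio of 0.69. NDUFS8, which holds a pair of clusters that feed NDUFS7, was 1.14-fold higher at 382 FPKM with A4368 and 335 FPKM in the control. NDUFS3 was at 122 FPKM with A4368 and 113 FPKM in the control. These 3 genes were all higher with A4368, as deposited and after the rescaling, but they are not the whole core of that part.

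GENCODE release 29 annotates antisense genes across exons of NDUFS7, and 50.6% of the distinct 31-base words of NDUFS7 transcripts also occur in transcripts of another gene, most of them in the antisense gene AC005329.1. The strandedness of the libraries is not given in the sources used here, so reads of NDUFS7 and of its antisense partner cannot be told apart. Protein-coding genes next to it in the RefSeq annotation differed less: GAMT was at 122 FPKM with A4368 and 107 FPKM in the control, and MUM1 at 21.1 FPKM with A4368 and 20.6 FPKM in the control. DAZAP1 was lower, at 79.7 FPKM with A4368 and 94.6 FPKM in the control. Without NDUFS7 the median of complex I was 0.011.

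The 30 accessory subunits of complex I surround this core and are needed for its assembly and stability. Of these, 16 were higher and 14 lower, or 21 higher after the rescaling, all as deposited within 1.2-fold on the log2 scale, with ratios from -0.25 to 0.16. NDUFB4, in the distal membrane arm, was at 229 FPKM with A4368 and 273 FPKM in the control, and NDUFB9 of the same arm at 353 FPKM with A4368 and 386 FPKM in the control. NDUFS5, the most abundant complex I transcript, was at 455 FPKM with A4368 and 493 FPKM in the control. At the other end, NDUFA10 was at 63.9 FPKM with A4368 and 57.0 FPKM in the control. Levels spanned a wide range within the complex, from 19.3 FPKM for NDUFV3 to 455 FPKM for NDUFS5 with A4368, and from 18.4 to 493 FPKM for the same genes in the control. NDUFA1, NDUFA7, NDUFB8 and NDUFB11 share 42.3% to 49.8% of their words with other genes, and each overlaps a gene on the opposite strand. NDUFA7 and NDUFB8 share most with AC010323.1 and AL133352.1, which are not the genes that overlap them on the opposite strand.

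**Figure D2:**
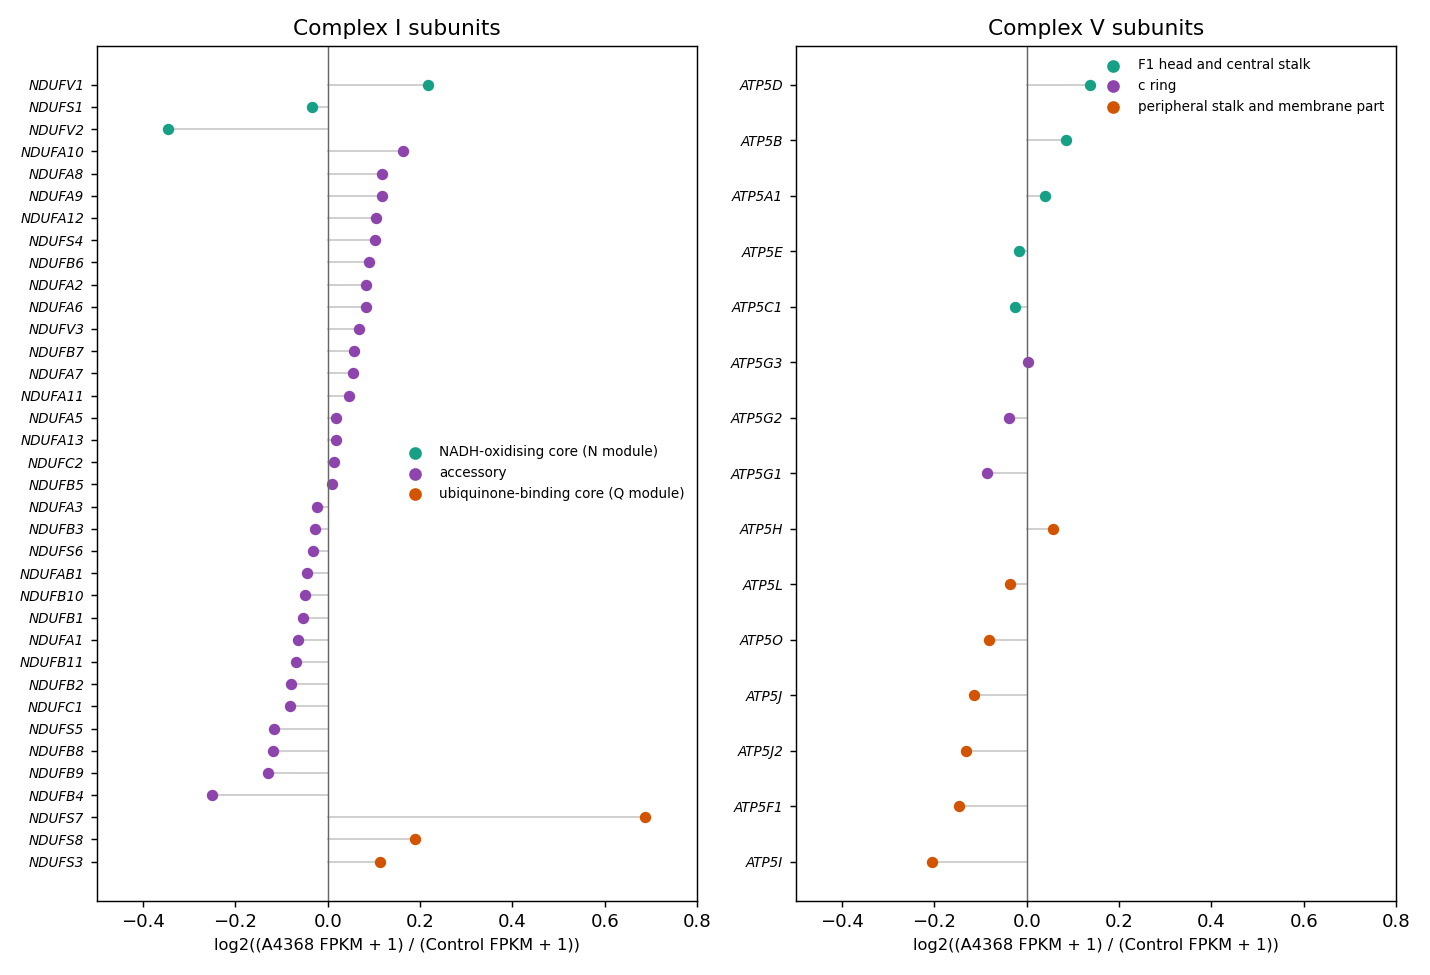
Log2 library ratio of the subunits of complex I (left, 1 not shown) and complex V (right), coloured by part of the complex and sorted by ratio within a part. NDUFV1 and NDUFV2 lie on opposite sides of 0, and 6 of the 7 peripheral stalk and membrane subunits of complex V lie below it as deposited, 5 of 7 after rescaling. Of the 921 genes that averaged 100 FPKM or more, 672 lay below 0 as deposited.

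Complex II, succinate dehydrogenase, is also an enzyme of the tricarboxylic acid cycle and has 4 subunits, all measured. The flavoprotein gene SDHA was at 74.0 FPKM with A4368 and 69.0 FPKM in the control. The iron-sulfur subunit gene SDHB was at 59.5 FPKM with A4368 and 61.8 FPKM in the control. The membrane anchors were close to level, SDHC at 170 FPKM with A4368 and 166 FPKM in the control, and SDHD at 91.8 FPKM with A4368 and 87.5 FPKM in the control. The largest difference of a complex II subunit in either direction was 1.07-fold, for SDHA, and the summed level was 395 FPKM with A4368 and 385 FPKM in the control.

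Complex III had 9 measured subunits, 5 higher and 4 lower, or 7 higher after the rescaling, with a median of 0.0089. The subunits that carry electrons were nearly equal in the libraries. CYC1, cytochrome c1, was at 134 FPKM with A4368 and 135 FPKM in the control. UQCRFS1, the Rieske iron-sulfur protein, was at 41.0 FPKM with A4368 and 41.2 FPKM in the control. The core protein UQCRC1 was 1.13-fold higher at 57.9 FPKM with A4368 and 51.1 FPKM in the control, while its partner UQCRC2 was at 95.2 FPKM with A4368 and 94.7 FPKM in the control. Among the small subunits, UQCR11 was at 164 FPKM with A4368 and 147 FPKM in the control and UQCR10 at 151 FPKM with A4368 and 158 FPKM in the control. UQCRH, the hinge protein, was at 414 FPKM with A4368 and 436 FPKM in the control. Its near-identical copy UQCRHL was at 4.89 FPKM with A4368 and 3.93 FPKM in the control, and reads of the pair could have been divided between them. Cytochrome c itself, which shuttles electrons from complex III to complex IV and triggers apoptosis when released, was lower: CYCS was at 269.7 FPKM with A4368 and 307 FPKM in the control, 1.14-fold lower.

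Complex IV had 11 measured nuclear subunits, with NDUFA4, once assigned to complex I, counted here. Of these 5 were higher and 6 lower, or 8 higher after the rescaling, with a median of -0.014. COX4I1 and COX5A, subunits that bind the mitochondrially made core, were both lower, COX4I1 at 420.2 FPKM with A4368 and 449 FPKM in the control and COX5A at 418 FPKM with A4368 and 453 FPKM in the control. The zinc-binding subunit gene COX5B was at 229 FPKM with A4368 and 217 FPKM in the control. The small membrane subunits differed in both directions. COX8A was at 630.1 FPKM with A4368 and 565 FPKM in the control, and COX7C at 560.2 FPKM with A4368 and 633 FPKM in the control. COX6A1, COX6B1, COX6C and COX7A2 were each within 1.03-fold of equal. NDUFA4 was at 255 FPKM with A4368 and 257 FPKM in the control, and its hypoxia-inducible relative NDUFA4L2 was barely listed, at 0.910 FPKM with A4368 and 0.638 FPKM in the control. No fold is read from values that low.

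Complex V had 15 measured subunits, 5 higher and 10 lower as deposited, or 9 higher and 6 lower after the rescaling, with a median of -0.037 as deposited and 0.013 after it. Of all genes tested, 48.0% were lower as deposited and 39.1% after the rescaling. All 15 subunits lay above 100 FPKM in both libraries. Of the 921 genes that averaged 100 FPKM or more, 672 were lower as deposited, with a median of -0.072. Ratios of the catalytic head and central stalk of complex V overlapped those of its membrane-bound part, and no test of a difference was made. Of the 5 head and central stalk genes, 3 were higher as deposited and all 5 after the rescaling. Those of the 5 that were lower as deposited, ATP5C1 and ATP5E, had log2 ratios of -0.025 and -0.018. ATP5B, the catalytic beta subunit, was at 521 FPKM with A4368 and 491 FPKM in the control, ATP5A1, the alpha subunit, at 266 FPKM with A4368 and 259 FPKM in the control, and ATP5D, the delta subunit, at 203 FPKM with A4368 and 185 FPKM in the control. Of the 7 genes of the peripheral stalk and membrane part, 6 were lower as deposited and 5 after the rescaling, the exceptions being ATP5H, with a log2 ratio of 0.057 as deposited, and, after the rescaling, ATP5L. The most abundant transcript of all members was ATP5I, the e subunit, at 1067 FPKM with A4368 and 1230.2 FPKM in the control. ATP5I shares 51.5% of its words with other genes, chiefly MYL5 on the opposite strand. MYL5 was listed at 3.04 FPKM with A4368 and 2.99 FPKM in the control, and the part of shared reads in the value of ATP5I was not tested. ATP5F1, the b subunit of the stalk, was at 145 FPKM with A4368 and 161 FPKM in the control, and ATP5J2, the f subunit, at 429 FPKM with A4368 and 470.1 FPKM in the control. Summed levels were 1305 FPKM with A4368 and 1255 FPKM in the control for the head and central stalk, and 2609 FPKM with A4368 and 2860.0 FPKM in the control for the stalk and membrane part. ATP5I alone made up 1067 FPKM of the latter sum with A4368 and 1230.2 FPKM in the control.

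The rotating ring of ATP synthase is made of a c subunit that ATP5G1, ATP5G2 and ATP5G3 encode as the same mature protein. ATP5G2 was the most abundant of the 3, at 592 FPKM with A4368 and 608 FPKM in the control, followed by ATP5G3 at 338 FPKM in both libraries and ATP5G1 at 169 FPKM with A4368 and 179.7 FPKM in the control. This order was the same in both libraries. ATP5I's membrane neighbour USMG5 and the small subunit C14orf2 lie outside the naming rule. USMG5 was at 442 FPKM with A4368 and 505 FPKM in the control, and C14orf2 at 148 FPKM with A4368 and 154 FPKM in the control. ATPIF1, the inhibitor that blocks ATP hydrolysis by the enzyme, was at 121 FPKM with A4368 and 119 FPKM in the control. Of these 3 genes, 1 was higher and 2 lower, with a median log2 ratio of -0.062.

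**Figure D3:**
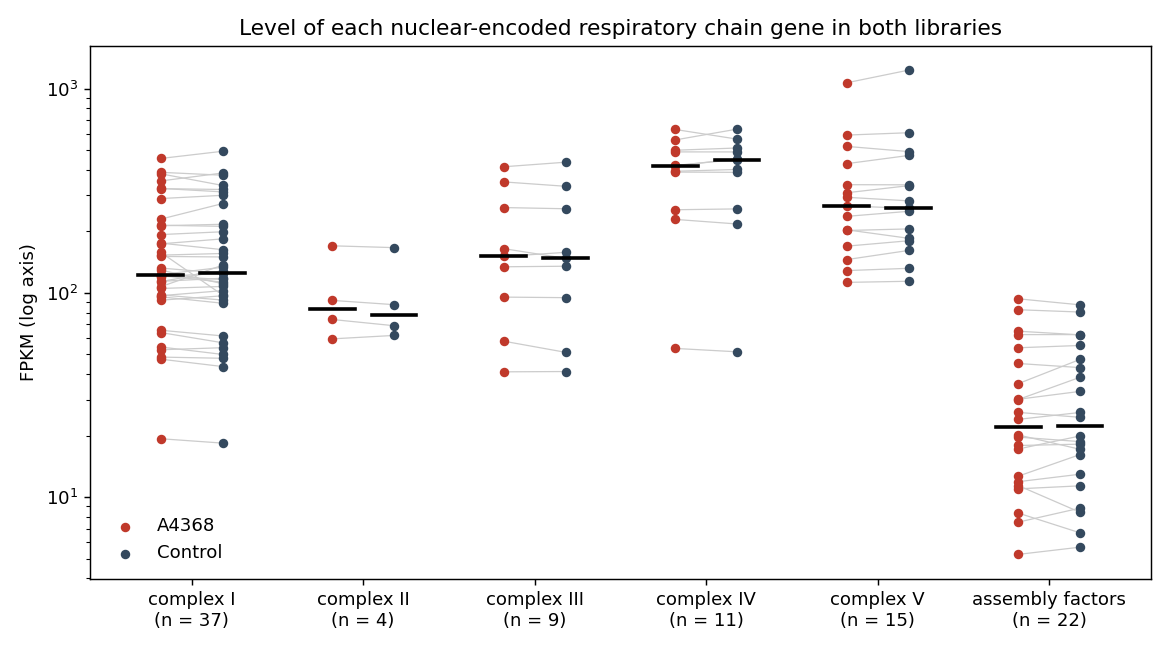
FPKM on a log axis of each subunit by complex, and of the assembly factors, with A4368 (red, left) and in the control (dark, right). Grey lines join a gene's values and thick bars are medians, which for complex IV lie at 418 FPKM with A4368 and 449 FPKM in the control and for assembly factors at 22.1 FPKM with A4368 and 22.2 FPKM in the control.

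Medians of the complexes are set side by side as a description. The median log2 ratio was 0.014 in complex I, 0.049 in complex II, 0.0089 in complex III, -0.014 in complex IV and -0.037 in complex V. Within complex I the middle 50% of ratios ran from -0.064 to 0.090. Rescaling moved all 5 above 0, to 0.063, 0.098, 0.058, 0.036 and 0.013 in the same order of complexes. The ratio of the summed level with A4368 to that in the control was 0.999 for complex I, 1.03 for complex II, 1.01 for complex III, 0.982 for complex IV and 0.957 for complex V. The same ratio, as deposited, was 0.967 over all genes tested and 0.953 over the 921 genes that averaged 100 FPKM or more. Median levels with A4368 were highest in complex IV at 418 FPKM and lowest in complex II at 82.9 FPKM. In the control the same complexes were highest, at 449 FPKM, and lowest, at 78.2 FPKM.

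Assembly factors build the complexes without remaining in them, and their transcripts were far scarcer than those of the subunits. The 22 measured factors had a median of 22.1 FPKM with A4368 and 22.2 FPKM in the control, against 170 FPKM with A4368 and 165 FPKM in the control for the 76 subunits. They also varied more in ratio than the subunits, with an SD of 0.20 log2 units over the factors and 0.13 over the subunits. Over all genes tested the SD was 0.26, and over the 921 genes that averaged 100 FPKM or more it was 0.16. The part of level in this difference was not tested. Of the factors 10 were higher and 12 lower, or 13 higher after the rescaling, with, as deposited, 2 higher and 3 lower past 1.2-fold.

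COX20, which helps insert the mitochondrially made COX2 protein, had the lowest ratio of all members, at 35.9 FPKM with A4368 and 47.2 FPKM in the control, 1.31-fold lower. Of its words 71.3% occur in transcripts of other genes, chiefly HNRNPU on the opposite strand. HNRNPU was listed at 203 FPKM with A4368 and 235 FPKM in the control, and its part in the value of COX20 was not tested. The complex I factors NDUFAF3 and NDUFAF5 followed. NDUFAF3, which acts early in building the ubiquinone-binding part, was 1.28-fold lower at 30.03 FPKM with A4368 and 38.6 FPKM in the control. NDUFAF5, which hydroxylates NDUFS7 during assembly, was 1.28-fold lower at 12.7 FPKM with A4368 and 16.1 FPKM in the control. The assembly factor and its client NDUFS7 thus differed in opposite directions. NDUFAF3 overlaps DALRD3 on the opposite strand, which was at 6.77 FPKM with A4368 and 5.16 FPKM in the control.

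The highest ratios among the factors belonged to complex II and to NDUFAF7. SDHAF4, which binds the flavinated SDHA before it joins SDHB, was 1.35-fold higher at 11.4 FPKM with A4368 and 8.42 FPKM in the control. SDHAF3, which acts on SDHB, was at 20.1 FPKM with A4368 and 17.1 FPKM in the control. SDHAF1, which also serves SDHB, was lower, at 17.2 FPKM with A4368 and 19.9 FPKM in the control, and SDHAF2, which attaches the flavin to SDHA, was at 62.4 FPKM in both libraries. Factors for the same complex therefore lay on both sides of 0. NDUFAF7, a methyltransferase that acts in complex I assembly, was 1.25-fold higher at 8.35 FPKM with A4368 and 6.68 FPKM in the control. Of the 10 complex IV factors 3 were higher as deposited and 6 after the rescaling, among them in both cases COX7A2L, which joins complexes III and IV into supercomplexes, at 93.4 FPKM with A4368 and 87.3 FPKM in the control.

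**Figure D4:**
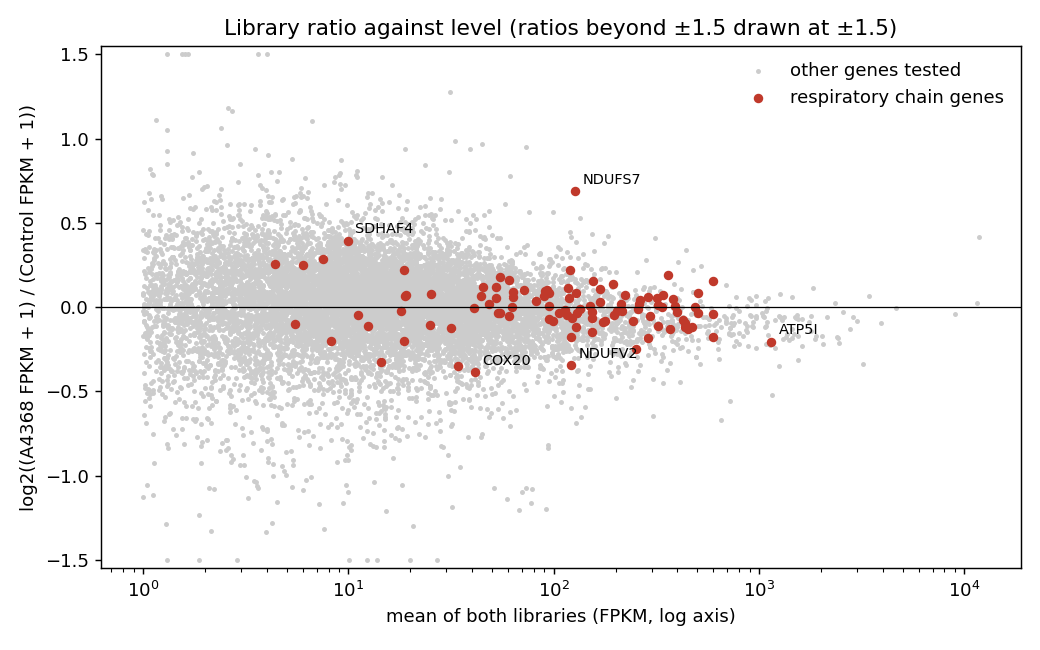
Log2 library ratio against the mean FPKM of both libraries (log axis) for respiratory chain genes (red) and all other genes tested (grey, ratios beyond 1.5 log2 units drawn at the edge). The labelled members are NDUFS7 at 0.69, SDHAF4, NDUFV2, COX20 and ATP5I.

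The members' ratios were also read against level, because abundant genes as a whole were lower with A4368 on the deposited scale. Of the 253 genes that averaged 300 FPKM or more, 18.6% were higher, with a median log2 ratio of -0.094. Of the 22 members at that level, 10 (45.5%) were higher, with a median of -0.033. Between 100 and 300 FPKM, 30.2% of 668 genes and 15 of 37 members (40.5%) were higher. Below 100 FPKM, 54.2% of 10317 genes and 25 of 42 members (59.5%) were higher. In each range the share of members that were higher exceeded that of all genes, and after the rescaling the shares of members were 59.1%, 67.6% and 71.4% from the highest range to the lowest, against 29.6%, 46.4% and 62.6% of all genes. These are counts over genes of 2 libraries, and no test stands behind them.

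Sequence features of the members were compared with their ratios as a description. Member transcripts were short, with a median length of 761 bases against 1785 bases for all genes tested. Over the 101 members the Spearman correlation of the ratio with transcript GC content was 0.12, and 0.092 without NDUFS7, over genes that share the same 2 libraries. Over the 76 subunits alone, NDUFS7 included, it was 0.22, with a Pearson correlation of 0.36. No value was computed for the subunits without NDUFS7. Over the members the Pearson correlation was 0.19 with NDUFS7 and 0.090 without it. In all genes tested the Spearman correlation was 0.0016. Exons of 39 of the 102 members overlapped exons of a gene on the opposite strand, and 3 members, NDUFS7, COX20 and ATP5I, shared at least 50% of their words with other genes. The highest and the lowest ratio of the members were both among these.

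Promoter motifs were counted in windows of 250 bases before to 50 bases after the RefSeq start, on both strands, for the 83 members with a RefSeq promoter. The NRF1 motif, GCGC, any base and TGCGC, was found in 20 members (24.1%), in 12.6% of the promoters of all genes tested and in 6.28% of all promoters in the table. The ETS motif CCGGAAG was found in 25 members (30.1%), against 21.0% and 10.7%, and the YY1 motif AAGATGGC in 12 members (14.5%), against 5.87% and 3.03%. A promoter could hold more than 1 motif. Members with the NRF1 motif, which include SDHAF4, UQCRC1 and NDUFB4 shown above, had a median log2 ratio of 0.042, with 11 of 20 higher, and members without it had -0.030, with 28 of 63 higher. For the ETS motif the medians were 0.00047 with and -0.022 without it, and for YY1 they were 0.016 and -0.021. A match is a description of letters and not of binding.

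Nuclear transcription factors and coactivators were examined in a list together with proteins of mitochondrial transcription, which act inside mitochondria and not on the nuclear-encoded members. The median of the list is therefore not that of regulators of the members. Of 14 named, 12 had values and 11 entered the counts, 4 higher and 7 lower, where 52.0% of all genes were higher. The median log2 ratio was -0.089, where that of all genes was 0.0098. After the rescaling 4 were higher, with a median of -0.041. Past 1.2-fold, 0 were higher and 4 lower, against 11.2% and 11.1% of all genes. PPRC1, a coactivator of the PGC-1 family, was 1.41-fold lower at 8.06 FPKM with A4368 and 11.4 FPKM in the control. GABPB1, a subunit of the ETS factor GABP, was 1.32-fold lower at 15.2 FPKM with A4368 and 20.1 FPKM in the control. The remaining 2 were TFB1M, a mitochondrial rRNA methyltransferase, at 13.7 FPKM with A4368 and 17.7 FPKM in the control, and TFB2M, a mitochondrial transcription factor, at 23.3 FPKM with A4368 and 29.9 FPKM in the control. NRF1 had the highest ratio of the list, 1.11-fold higher at 8.80 FPKM with A4368 and 7.95 FPKM in the control. TFAM and GABPA lay nearer to equality. TFAM was at 33.8 FPKM with A4368 and 33.4 FPKM in the control, and GABPA at 17.5 FPKM with A4368 and 16.9 FPKM in the control. PPARGC1A, the coactivator PGC-1 alpha, was close to the lower edge of the table at 0.828 FPKM with A4368 and 1.16 FPKM in the control.

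Assembly factors outside the naming rule numbered 33 with values of 37 names looked up. Of these 21 were higher and 12 lower, 3 higher and 1 lower past 1.2-fold (11.2% and 11.1% of all genes), with a median of 0.046. Of all genes 52.0% were higher. After the rescaling 22 were higher, with a median of 0.094, where 60.9% of all genes were higher, with a median of 0.055. The 3 that were higher were LYRM7, a chaperone of the Rieske protein, at 4.51 FPKM with A4368 and 3.20 FPKM in the control, UQCC3 at 21.0 FPKM with A4368 and 15.9 FPKM in the control, and BCS1L, which inserts the Rieske protein, at 33.2 FPKM with A4368 and 26.9 FPKM in the control. COA7, a complex IV factor, was lower at 9.31 FPKM with A4368 and 12.1 FPKM in the control. Other complex III factors of the list had smaller ratios in both directions, -0.11 for UQCC1, 0.045 for UQCC2 and 0.063 for TTC19.

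Genes that feed electrons into the chain or make ubiquinone had a median of -0.037, with 8 of 20 higher and 12 lower, and after the rescaling 0.012, with 10 higher. Past 1.2-fold, 4 were higher and 2 lower, where 11.2% and 11.1% of all genes were. Those higher were the ubiquinone synthesis genes COQ6, at 11.8 FPKM with A4368 and 8.30 FPKM in the control, COQ2, at 9.58 FPKM with A4368 and 7.06 FPKM in the control, and COQ5, at 35.6 FPKM with A4368 and 29.1 FPKM in the control, with ETFDH, which passes electrons from fatty acid oxidation to ubiquinone, at 14.3 FPKM with A4368 and 10.4 FPKM in the control. Those lower were PRODH, proline dehydrogenase, at 1.98 FPKM with A4368 and 3.49 FPKM in the control, and PDSS1, a synthase of the ubiquinone side chain, at 7.86 FPKM with A4368 and 10.1 FPKM in the control. Ubiquinone synthesis genes thus lay on both sides. Of 13 tricarboxylic acid cycle genes other than succinate dehydrogenase, 9 were higher and 4 lower, with a median of 0.045, where 52.0% of all genes were higher. After the rescaling 11 were higher, with a median of 0.092, where 60.9% of all genes were higher, with a median of 0.055. Past 1.2-fold as deposited, 2 were higher and 0 lower, where 11.2% and 11.1% of all genes were. IDH3A, a subunit of NAD-dependent isocitrate dehydrogenase, was 1.42-fold higher at 15.2 FPKM with A4368 and 10.7 FPKM in the control, and OGDH, of the oxoglutarate dehydrogenase complex, was 1.24-fold higher at 47.7 FPKM with A4368 and 38.6 FPKM in the control. Citrate synthase, CS, was at 87.7 FPKM with A4368 and 87.9 FPKM in the control.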

How the data were processed

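RNA-seq libraries of Hep3B cells, 1 with A4368 and 1 untreated, were compared. The authors deposited 1 table of gene symbols with a value per library. Its header names no unit, and the values were read as FPKM because the submitters' processing notes list Cufflinks, with TopHat2 2.0.12, Bowtie2 2.2.3 and the build hg19. The annotation, and how low genes were removed before deposit, is not given in the sources used here. Of 24302 lines, 11511 held a symbol and values, the lowest mean being 0.496 FPKM. Low values were searched for steps of whole reads: of 1680 genes averaging under 3 FPKM, no more than 6 had equal ratios of the libraries at 3 decimals, which leaves depth unknown.

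Ratios were log2((A4368 + 1)/(control + 1)) over the 11238 genes averaging 1 FPKM or more, which removed 273. Limits of 1.5-fold and 1.2-fold lie on that scale. Nothing was tested and no p-value computed. Members and gene lists were chosen with earlier results of these data known. Genes named by rule, if they averaged 5 FPKM or more, were the 2 highest and 2 lowest ratios and the highest level among subunits of each complex and the 3 highest and 3 lowest assembly factors, plus CYCS, members past 1.5-fold or under a mean of 1 FPKM, and isoform pairs, 36 in all. The remaining named genes were picked with their values in view. Symbols were matched directly or through RefSeq synonyms to GENCODE release 29 transcripts for 102 members and 99.5% of all genes. Shared sequence means the percentage of distinct 31-base words from a gene's transcripts that either strand of another gene's transcripts holds. Read-through loci were left out only where their joined symbol holds that of the gene. Promoter sequences are RefSeq's on GRCh38.p14. For 77 of 83, the first transcribed bases of the window were found in a transcript of the gene. Since the authors' annotation is unknown, no coordinates are given from the table. For 1 complex I subunit no value of its own is reported here. The ratio procedure was tested on simulated data. Python 3.11.15, numpy 2.4.6 and pandas 2.3.3 were used.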

Additional observations from a re-analysis of the deposited data

How the results depend on the processing

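Alternatives were pseudocounts of 0.1 and 5, no filter, a filter at 5 FPKM, centring on genes averaging 10 FPKM or more, rescaling without the 50 highest genes, leaving out members that share at least 50% of their sequence, list means in place of medians, NDUFA4 with complex I, and subunits with assembly factors. Chosen after seeing the data were centring within deciles of GC content, leaving out NDUFS7, and COX7A2L among complex IV subunits. Members past 1.2-fold upward numbered 3 as reported, 5 with a pseudocount of 0.1 and 7 after rescaling, which also left 33 members lower where 51 had been. No member passed 1.5-fold without those sharing most of their sequence, a count of 0 for genes higher, because NDUFS7 is among them. The other 194 values of counts and medians stayed within 1.5 times or within 0.1 log2 units. That tolerance stands in for a replicate spread, which these data do not have. The median of every complex was itself smaller than 0.1 in size. Staying within the tolerance therefore does not show that a median or its sign is stable. Medians near 0 changed sign: complex I was -0.021 with GC centring and complexes IV and V were 0.036 and 0.013 after rescaling, which moved the median of all genes to 0.055. No depth and no counts are known, so no interval can be given. No paired analysis was possible because each group is 1 library.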

Other observations

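Read-through rows, which carry joined symbols and were left out of the members, differed more than the members they contain. NDUFC2-KCTD14 was at 4.01 FPKM with A4368 and 9.09 FPKM in the control, a log2 ratio of -1.01, where NDUFC2 itself was at 323 FPKM with A4368 and 320.5 FPKM in the control. ATP5J2-PTCD1 was at 6.85 FPKM with A4368 and 3.99 FPKM in the control, a log2 ratio of 0.65, where ATP5J2 was lower. Each pair shares exons, so its values are not independent.

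ATP5S, which encodes coupling factor B and bears an ATP synthase name, was at 6.58 FPKM with A4368 and 5.38 FPKM in the control. ATP5SL, now known as the complex I assembly factor DMAC2, was at 64.9 FPKM with A4368 and 62.2 FPKM in the control. Split by transcript GC content, 16 of the 34 members with the highest GC content were higher with A4368, and so were 16 of the 34 with the lowest and 18 of the 33 between them.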
